A study of Daphnia sinensis with 8 samples.

Results

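The trypsin-7-like genes of *Daphnia sinensis* are 3 unigenes to which the study's list of male-biased genes gives a best match to trypsin-7 of other species. They are Cluster-5789.9553 (trypsin-7-like protein), Cluster-5789.3677 (putative trypsin-7) and Cluster-5789.9554 (putative trypsin-7, partial), and all 3 were among the 11114 unigenes in the count files. The study chose them because they were up-regulated in males against the female stages in the same libraries, followed by qPCR. Their difference between males and females is therefore given below as a description without p-values. Test results are read only between the female stages. The unigene sequences were not used here, so the annotation was not checked.

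Trypsins are serine proteases that cut proteins after lysine or arginine. They are made as inactive precursors and activated by cleavage. In *Daphnia*, trypsins and chymotrypsins are the main proteases of the gut, where they digest algal food, and protease inhibitors of cyanobacteria act on them.

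The abbreviations are M (male), SF (sexual female), PF (parthenogenetic female) and JF (juvenile female). *D. sinensis* reproduces by parthenogenesis or sexually, and all animals descended from a laboratory culture collected in one lake. M, SF and PF were adults of 2 to 3 weeks per the labels, and SF and PF were taken from crowded beakers. JF were collected within 12 h of birth from mothers kept singly, so age and culture cannot be told apart from stage where JF is compared. Male juveniles were cultured apart from the females before sampling, so culture cannot be told apart from sex where M is compared. The methods also define males as newborn, which disagrees with the labels. Each stage had 2 libraries of pooled whole animals, about 60 for M, 50 for SF, 50 for PF and 500 for JF. According to the methods, SF carried resting eggs and PF carried eggs for the first time. In whole animals, fewer cells of a type and less RNA per cell cannot be told apart. Nothing in the labels shows separate cultures for the 2 libraries of a stage, so p-values measure the spread between these libraries, which may be partly technical. That spread was estimated over all 8 libraries, so the male replicates also enter the p-values of the female comparisons.

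Total counts ranged between 17172891 and 27160267 per library, and levels are given as CPM, a count divided by the library size adjusted by edgeR's TMM method and multiplied by 1000000. Of the 11114 unigenes, 10822 passed the filter on low counts, including all 3 trypsin-7-like genes. The log2 ratios between the replicates of a stage, over unigenes above 20 CPM, had a scaled median absolute deviation of 0.06 for M, 0.30 for SF, 0.29 for PF and 0.20 for JF, so the male replicates were the closest. *Doublesex2* (Cluster-5789.12340), a sex regulatory gene, had 227.9 and 220.6 CPM in M, against 4.03 and 3.91 CPM in SF, 3.45 and 5.90 CPM in PF, and 5.65 and 4.06 CPM in JF. This check of the male label is not independent, since that gene was chosen from these libraries too.

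The study designed a pair of qPCR primers for each of the 3 genes. They are shown because they are the sequences at hand for these transcripts, within a gene family whose reads can be hard to separate. The primers are printed 5′ to 3′, and the capitals mark the 5 bases at the 3′ end, from which the polymerase extends.
Cluster-5789.9553 forward: gtggtgtcgtagtTCTCA
Cluster-5789.9553 reverse: aatgtcaggtttgttcAATCT
Cluster-5789.3677 forward: tactggctgaagatGTCTC
Cluster-5789.3677 reverse: atggcgatgaacaCAATG
Cluster-5789.9554 forward: gacacttgccaggttATATG
Cluster-5789.9554 reverse: tagccaaaggaggtGATAC
The longest run of bases that a primer of one gene shared with a primer of another, on either strand, was 5 or 6 bases. The primers were not compared with the transcripts, and they say nothing of how well the transcripts were separated in the sequencing counts.

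All 3 trypsin-7-like genes were far higher in males than in any female library. In each of them both male libraries lay above all 6 female libraries, as did those of 14.5% of the tested unigenes. All 3 also passed the DEG thresholds as up-regulated in M vs SF, M vs PF and M vs JF, while 10.2%, 18.1% and 13.6% of the tested unigenes did so. A DEG had a Benjamini-Hochberg adjusted p under 0.05 in edgeR and an absolute log2 fold change over 1. Nothing is read from these counts, because these comparisons were used to choose the genes.

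Cluster-5789.9553 had 470.6 and 471.8 CPM in M, against 7.41 and 0.81 CPM in SF, 5.49 and 1.30 CPM in PF, and 2.67 and 2.79 CPM in JF. The male libraries were almost equal, whereas the SF and PF libraries each held a high and a low value. Males averaged 471 ± 0.861 CPM, against 4.11 ± 4.67 CPM for SF, 3.39 ± 2.96 CPM for PF and 2.73 ± 0.0868 CPM for JF (SD, n = 2 libraries each). The log2 fold change was 6.84 in M vs SF (SE 1.18), 7.09 in M vs PF (SE 1.19) and 7.43 in M vs JF (SE 1.21). Each female library held at most 1.57% of the male mean. The lowest male library was 63.5 times the highest female library, which ranked 1 among the 10822 tested unigenes. By the same gap Cluster-5789.9554 ranked 8 and Cluster-5789.3677 ranked 15. These ranks describe the male comparison that was used to choose the genes. The low female values rest on few reads, with 17 counts in SF replicate 2 (0.472 to 1.30 CPM, exact Poisson 95% interval) and 24 counts in PF replicate 2 (0.832 to 1.93 CPM). Such intervals cover counting error only. The M vs SF value was 9.17 without SF replicate 1 and 6.03 without SF replicate 2. The M vs PF value was 8.57 without PF replicate 1 and 6.42 without PF replicate 2.

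Cluster-5789.3677 had 1152 and 1195 CPM in M, against 53.2 and 18.3 CPM in SF, 13.0 and 6.82 CPM in PF, and 63.2 and 67.9 CPM in JF. Among the female libraries, those of PF were lowest, those of SF between and those of JF highest. How many other unigenes separate the 3 female stages in this way was not counted, so this order is a description. Males averaged 1173 ± 30.2 CPM, against 35.8 ± 24.7 CPM for SF, 9.91 ± 4.38 CPM for PF and 65.5 ± 3.34 CPM for JF (SD, n = 2 libraries each). The log2 fold change was 5.04 in M vs SF (SE 0.61), 6.88 in M vs PF (SE 0.67) and 4.16 in M vs JF (SE 0.59). The lowest male library was 17.0 times the highest female library, JF replicate 2, and the female libraries held between 0.581% and 5.79% of the male mean. The M vs SF value was 6.00 without SF replicate 1 and 4.51 without SF replicate 2. The M vs PF value was 7.50 without PF replicate 1 and 6.50 without PF replicate 2.

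Cluster-5789.9554, the partial sequence, had 248.2 and 258.9 CPM in M, against 9.87 and 2.72 CPM in SF, 9.75 and 5.03 CPM in PF, and 7.38 and 6.18 CPM in JF. The female stages overlapped, and SF held both the highest and the lowest female library. Males averaged 254 ± 7.60 CPM, against 6.29 ± 5.06 CPM for SF, 7.39 ± 3.34 CPM for PF and 6.78 ± 0.848 CPM for JF (SD, n = 2 libraries each). The log2 fold change was 5.33 in M vs SF (SE 0.69), 5.09 in M vs PF (SE 0.68) and 5.23 in M vs JF (SE 0.69). The lowest male library was 25.1 times the highest female library, and the female libraries held between 1.07% and 3.89% of the male mean. The M vs SF value was 6.54 without SF replicate 1 and 4.73 without SF replicate 2. The M vs PF value was 5.73 without PF replicate 1 and 4.70 without PF replicate 2.

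**Figure D1:**
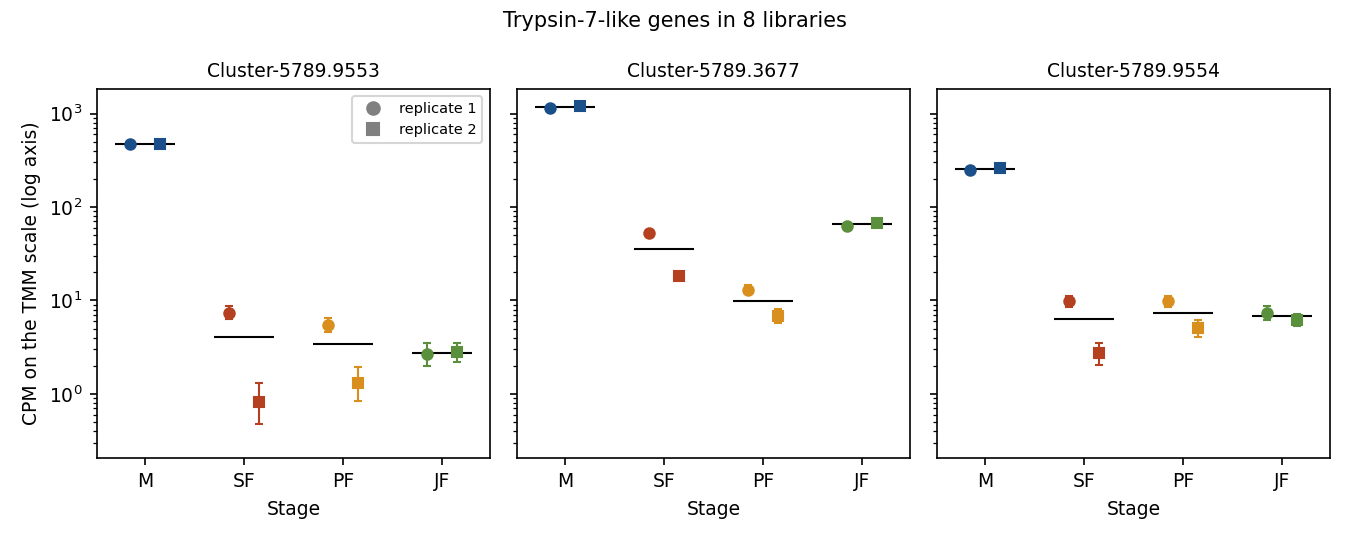
Level of each trypsin-7-like gene (CPM on the TMM scale, log axis) in the 2 libraries of M, SF, PF and JF. Points are libraries with exact Poisson 95% intervals of their counts, and lines are stage means. In all 3 panels both male libraries are above every female library, and replicate 1 is above replicate 2 in SF and PF.

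The female stages were compared next, since these comparisons were not used to choose the genes, although the libraries are the same. PF vs JF called 1 of the 3 genes. Cluster-5789.3677 fell by 2.72 on the log2 scale in PF against JF (SE 0.56, edgeR adjusted p = 0.00705), and both PF libraries were below both JF libraries. Fitted on the 6 female libraries alone, its edgeR adjusted p was 0.0177. The test called 38.9% of all tested unigenes in this comparison, with 17.2% up-regulated and 21.6% down-regulated in PF, so a single call among 3 genes does not set them apart. The call held with any of the 8 libraries left out, with log2 fold changes from -3.22 to -2.33. Cluster-5789.9553 (0.34, 95% interval -2.19 to 2.86, edgeR adjusted p = 0.792) and Cluster-5789.9554 (0.14, 95% interval -1.35 to 1.62, edgeR adjusted p = 0.86) were not called. These intervals include differences of more than 2-fold in either direction.

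SF vs PF called 0 of the 3 genes in edgeR, with 1 gene at an unadjusted p under 0.05 and 1 gene called by DESeq2, while 14.8% of all tested unigenes were called (9.98% up-regulated and 4.84% down-regulated in SF). That gene was Cluster-5789.3677, with a log2 fold change of 1.85 (SE 0.54, 95% interval 0.51 to 3.18, edgeR adjusted p = 0.0524). Fitted on the 6 female libraries alone, its edgeR adjusted p was 0.1. Both SF libraries were above both PF libraries, but the call depended on the library and the fit. The log2 fold change was 0.92 without SF replicate 1 (edgeR adjusted p = 0.141) and 2.42 without SF replicate 2 (edgeR adjusted p = 0.00959), and DESeq2 on all 8 libraries gave 1.79 (adjusted p = 0.00357). The edgeR adjusted p of the other alternatives was between 0.0434 and 0.175. Cluster-5789.9553 had a log2 fold change of 0.25 (95% interval -2.22 to 2.73, edgeR adjusted p = 0.873), which turned to -2.05 without SF replicate 1 and -0.41 without PF replicate 2. Cluster-5789.9554 had one of -0.24 (95% interval -1.73 to 1.25, edgeR adjusted p = 0.8), which turned to 0.37 without PF replicate 1 and 0.41 without SF replicate 2. The difference of both genes between SF and PF was within the spread between replicates.

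SF vs JF called 0 of the 3 genes in edgeR, with 0 genes at an unadjusted p under 0.05 and 0 called by DESeq2, while 37.6% of all tested unigenes were called (19.0% up-regulated and 18.6% down-regulated in SF). For Cluster-5789.3677 the log2 fold change was -0.87 (SE 0.52, 95% interval -2.16 to 0.41, edgeR adjusted p = 0.195). Without SF replicate 1 it was -1.72 and was called (edgeR adjusted p = 0.0164), and without SF replicate 2 it was -0.23. Cluster-5789.9553 had a log2 fold change of 0.59 (95% interval -1.92 to 3.10, edgeR adjusted p = 0.641) and Cluster-5789.9554 one of -0.10 (95% interval -1.60 to 1.39, edgeR adjusted p = 0.894). The value of Cluster-5789.9553 turned to -1.63 without SF replicate 1, and that of Cluster-5789.9554 turned to 0.62 without SF replicate 2 and 0.02 without JF replicate 1. In the order of means of Cluster-5789.3677 (M, JF, SF, PF), the neighbours SF and JF, and the neighbours SF and PF, thus did not differ beyond the test's threshold.

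**Figure D2:**
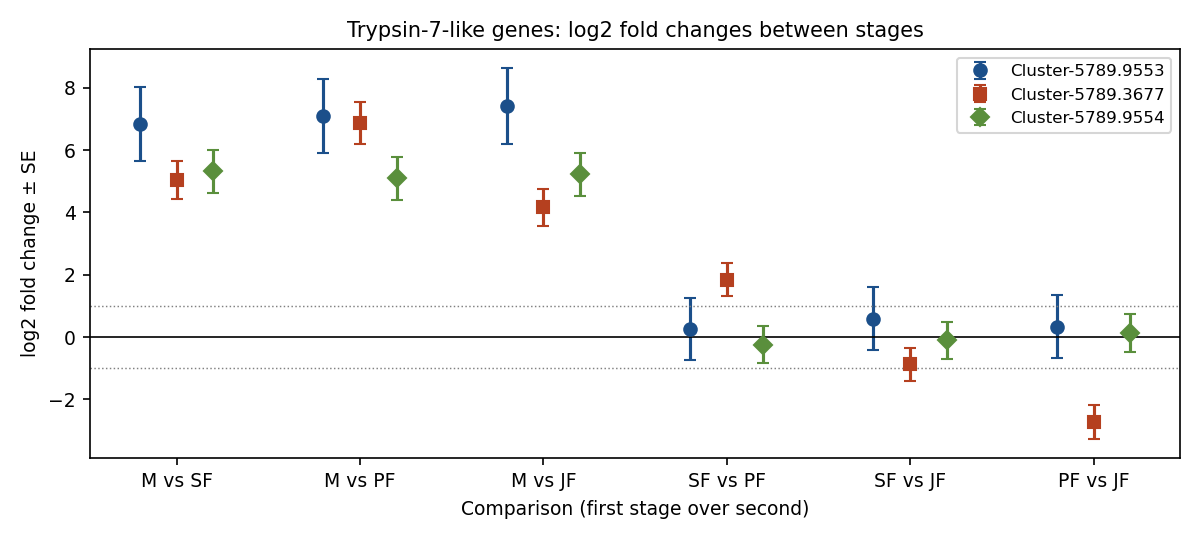
Log2 fold changes (first-named stage over the second) of the 3 trypsin-7-like genes in 6 comparisons, with SE bars from the edgeR fit of all 8 libraries. Dotted lines mark log2 fold changes of 1 and -1, and the male comparisons were used to choose the genes. The male values lie between 4.16 and 7.43, and among the female comparisons the value of Cluster-5789.3677 in PF vs JF is farthest from 0.

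The replicates of SF and PF differed in the same direction in all 3 genes. In SF, replicate 1 was 9.16 times replicate 2 in Cluster-5789.9553, 2.91 times in Cluster-5789.3677 and 3.64 times in Cluster-5789.9554. In PF these ratios were 4.23, 1.91 and 1.94. On the log2(CPM + 0.5) scale, the smallest of the differences was 1.52 in SF and 0.88 in PF, and 2.09% and 5.12% of the tested unigenes had replicate 1 higher by at least as much. Both held for 60 of the 10822 unigenes (0.554%), which include the 3 genes. This count was made after the values had been seen. The JF libraries of the 3 genes differed by at most 1.19 times and the male libraries by at most 1.04 times. *Doublesex2* did not move with them, with 1.80% and 1.74% of its male mean in SF replicates 1 and 2, where Cluster-5789.9553 had 1.57% and 0.172%. In PF replicates 1 and 2 *Doublesex2* had 1.54% and 2.63%, the opposite order to the 3 trypsin-7-like genes.

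The proportions of the 3 genes were then compared within each library. A count ratio between 2 genes depends on their lengths, which are the same in all libraries, and not on the scaling of the library. Cluster-5789.9553 had 1.90 and 1.82 times the counts of Cluster-5789.9554 in M, against 0.751 and 0.298 times in SF, 0.562 and 0.258 times in PF, and 0.362 and 0.452 times in JF. Males were thus above every female library in this ratio, and Cluster-5789.9553 was the sole unigene of 10821 (0.00924%) whose ratio to Cluster-5789.9554 did so. This is a description, because it largely restates the male comparison used to choose the genes. In that comparison Cluster-5789.9553 had the largest gap between the lowest male and the highest female library (rank 1 of 10822).

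The ratio of Cluster-5789.3677 to Cluster-5789.9554 was lowest in PF and highest in JF. It was 4.64 and 4.61 in males, against 5.39 and 6.74 for SF, 1.33 and 1.35 for PF, and 8.56 and 11.0 for JF. The 2 libraries of SF and of JF differed more in this ratio than those of M and of PF. Both SF libraries were above both PF libraries, as was the case for 15.9% of all unigenes set against Cluster-5789.9554, and both PF libraries were below both JF libraries, as for 33.0%. With 2 libraries per stage an exact permutation test cannot pass the threshold, and none was run. The ratio of Cluster-5789.9553 to Cluster-5789.3677 was 0.408 and 0.395 in males, against 0.139 and 0.0443 for SF, 0.422 and 0.190 for PF, and 0.0423 and 0.0411 for JF. Here PF replicate 1 was at the level of the males. Of the reads of the 3 genes together, Cluster-5789.3677 held 61.6% and 62.0% in males, against 75.5% and 83.8% for SF, 46.0% and 51.9% for PF, and 86.3% and 88.3% for JF.

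**Figure D3:**
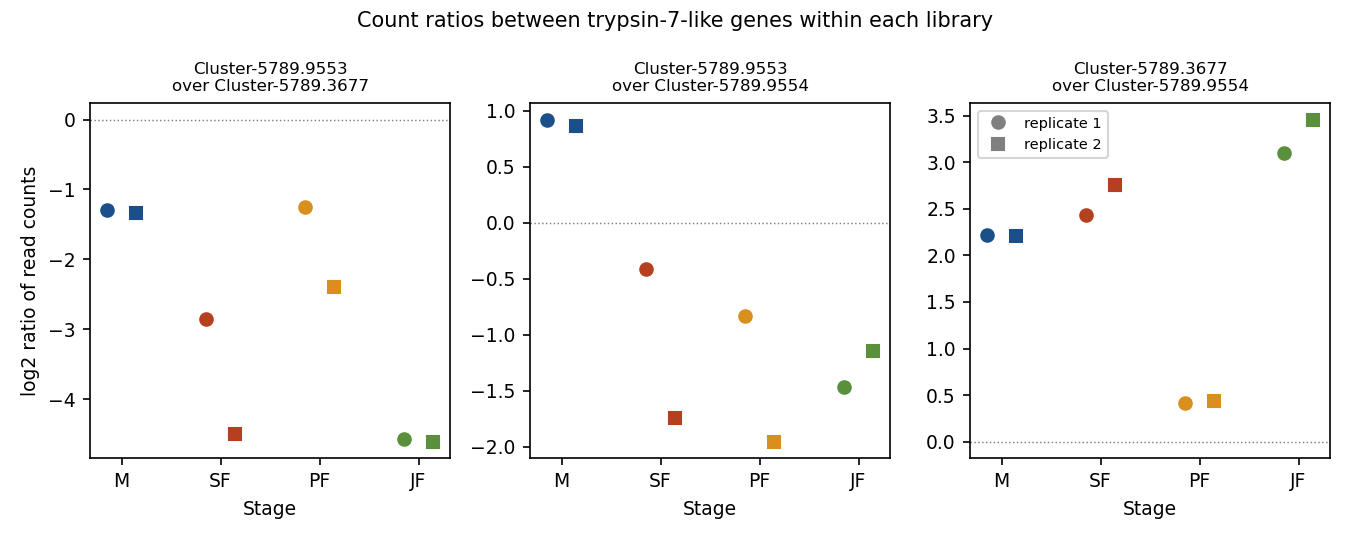
Log2 ratio of read counts between pairs of trypsin-7-like genes in each library, by stage (circles replicate 1, squares replicate 2, dotted line equal counts). The ratio of Cluster-5789.9553 to Cluster-5789.9554 is above 0 only in the male libraries, and that of Cluster-5789.3677 to Cluster-5789.9554 is lowest in both PF libraries.

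The counts are estimates, and reads of related trypsins could have been divided between them. Of the 24 values of the 3 genes, 11 were not whole numbers, including all 6 in males and 5 of 18 in females. Over all unigenes, 56.8% to 63.8% of the values of a library were whole. Fractional values by themselves thus do not set the 3 genes apart in females. In the male libraries 60.4% and 63.8% of the values of all unigenes were whole, whereas all 6 values of the 3 genes were fractional. In females, 3 of 6 values of Cluster-5789.9553 were fractional, 1 of 6 of Cluster-5789.3677 and 1 of 6 of Cluster-5789.9554. The part of shared reads in the proportions above was not tested.

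The study's list holds 3 further genes of this enzyme class, and the highest female library came closer to the male level in each of them. Cluster-5789.11655 (trypsin alpha-like) had 742 and 751 CPM in M, against 541 and 239 CPM in SF, 29.8 and 31.4 CPM in PF, and 85.2 and 81.1 CPM in JF. Cluster-5789.2039 (serine protease ami-like) had 522 and 517 CPM in M, against 404 and 116 CPM in SF, 5.53 and 4.44 CPM in PF, and 64.6 and 63.3 CPM in JF. Cluster-5789.7668 (trypsin-like isoform X1) had 203 and 192 CPM in M, against 16.6 and 13.7 CPM in SF, 24.2 and 10.9 CPM in PF, and 77.7 and 65.5 CPM in JF. Their highest female library held between 39.3% and 77.8% of the male mean, where the trypsin-7-like genes reached 5.79% at most. Their lowest female libraries, all in PF, held 3.99% for Cluster-5789.11655, 0.854% for Cluster-5789.2039 and 5.53% for Cluster-5789.7668, which is below that maximum. This is a description, because both sets of genes were chosen by the male comparison.

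The female comparisons are given for the further genes beside the shares of all tested unigenes (14.8% called in SF vs PF, 38.9% in PF vs JF and 37.6% in SF vs JF). In SF vs PF 2 of the 3 rose and 0 fell, with log2 fold changes of 3.67 for Cluster-5789.11655 (edgeR adjusted p = 0.00194) and 5.70 for Cluster-5789.2039 (edgeR adjusted p = 0.00307), against 0 called trypsin-7-like genes. Of the latter, Cluster-5789.3677 was near the threshold (edgeR adjusted p = 0.0524). The calls of the further genes were not recomputed under the alternatives. In PF vs JF all 3 fell, with log2 fold changes of -1.44 for Cluster-5789.11655 (edgeR adjusted p = 0.0127), -3.68 for Cluster-5789.2039 (edgeR adjusted p = 0.00284) and -2.02 for Cluster-5789.7668 (edgeR adjusted p = 0.00359), against 1 of the 3 trypsin-7-like genes. In SF vs JF 2 of the 3 rose, with 2.23 for Cluster-5789.11655 (edgeR adjusted p = 0.00247) and 2.02 for Cluster-5789.2039 (edgeR adjusted p = 0.0205), and 1 fell, with -2.24 for Cluster-5789.7668 (edgeR adjusted p = 0.00262). The median log2 fold change in SF vs PF was 0.25 for the trypsin-7-like genes, 3.67 for the further genes and 0.02 for all tested unigenes. The difference between both sets of genes was not tested. SF replicate 1 was above SF replicate 2 in all 3 further genes as well (2.27 times in Cluster-5789.11655, 3.47 times in Cluster-5789.2039 and 1.22 times in Cluster-5789.7668). PF replicate 1 was above PF replicate 2 in Cluster-5789.2039 (1.25 times) and Cluster-5789.7668 (2.21 times), and below it in Cluster-5789.11655.

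**Figure D4:**
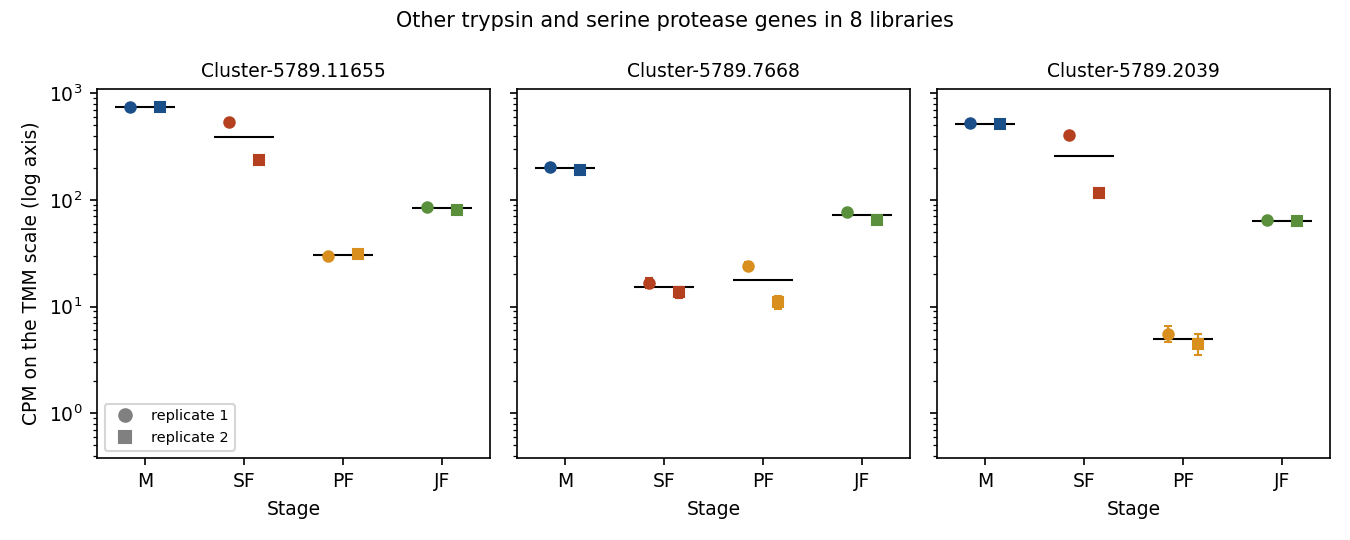
Level (CPM on the TMM scale, log axis) of the 3 further trypsin and serine protease genes of the study's list in the 2 libraries of M, SF, PF and JF, with exact Poisson 95% intervals and stage means as lines. SF replicate 1 reaches 541 CPM in Cluster-5789.11655 and 404 CPM in Cluster-5789.2039, close to the male libraries.

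The likeness of patterns was measured as the root mean square difference of log2(CPM + 0.5) over the 8 libraries, after each unigene was centred on its own mean. By this measure Cluster-5789.9553 and Cluster-5789.9554 differed by 0.92, Cluster-5789.3677 and Cluster-5789.9554 by 1.03, and Cluster-5789.9553 and Cluster-5789.3677 by 1.29. From Cluster-5789.9553, Cluster-5789.9554 was the unigene at rank 2 of all others, behind Cluster-5789.1277 (0.90), and Cluster-5789.3677 was at rank 10. From Cluster-5789.9554, however, Cluster-5789.9553 was at rank 25 and Cluster-5789.3677 at rank 32. The measure includes the difference between males and females, for which the trypsin-7-like genes were chosen. Their ranks, and the near unigenes named next, are therefore a description. The unigenes nearest to Cluster-5789.9554 were Cluster-5789.697 (0.41), an uncharacterized gene of the study's list, Cluster-5789.1175 (0.42) and Cluster-5789.1277 (0.56). Those nearest to Cluster-5789.3677 were Cluster-5789.1985 (0.80), Cluster-5789.9257 (0.84) and Cluster-5789.11769 (0.84), and Cluster-5789.9257 (0.98) and Cluster-5789.697 (1.07) were also near Cluster-5789.9553. These are 9 pairs of a trypsin-7-like gene and a near unigene, with some unigenes near more than one gene, and 5 of the 9 pairs remained when 2 CPM were added instead of 0.5.

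Both Cluster-5789.1985 and Cluster-5789.3677 had their lowest female libraries in PF. Cluster-5789.1985 had 487 and 486 CPM in M, against 84.0 and 41.2 CPM in SF, 11.7 and 4.82 CPM in PF, and 43.6 and 43.0 CPM in JF, but unlike Cluster-5789.3677 its SF mean was above its JF mean. Cluster-5789.1277 had 1465 and 1471 CPM in M, against 37.6 and 8.48 CPM in SF, 19.2 and 23.4 CPM in PF, and 49.6 and 33.6 CPM in JF. It shared the unequal SF libraries of Cluster-5789.9553, while its PF libraries were in the opposite order.

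Cluster-5789.9553 and Cluster-5789.9554 have consecutive ID numbers. By the measure of likeness above they differed by 0.92, and 63.8% of 7783 pairs with consecutive numbers differed by less. Of pairs 100 places apart in the order of numbers, 59.3% did so. Both shares are a description too, because the measure includes the difference between males and females used to choose the genes. The unigenes on either side of the 3 trypsin-7-like genes in number were less far apart between males and females. This is a description, because the 3 genes were chosen for that difference. Cluster-5789.9552 had 111 and 114 CPM in males, against 94.1 to 186 CPM in females, and the groups overlapped. Cluster-5789.9555 had 40.5 and 46.0 CPM in males, against 33.8 to 39.2 CPM in females. Next to Cluster-5789.3677, Cluster-5789.3676 had 9.04 and 8.13 CPM in males, against 1.46 to 4.24 CPM in females. Cluster-5789.3678 had 167 and 170 CPM in males, against 87.3 to 211 CPM in females, and overlapped.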

How the data were processed

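Poly-A RNA of 8 pools of whole *D. sinensis* was sequenced by the authors as paired ends on an Illumina platform. They removed reads of low quality, assembled unigenes with Trinity and deposited estimated counts per unigene and library, without scaling. Which programs aligned and counted the reads was not given in any of the sources used here. In each library 56.8% to 63.8% of the values were whole (to within 0.000001) and 0 were 0, so unigenes without reads in some library were not analysed here. No ID matched the reference gene table (0 IDs), and names are the best matches in the study's list.

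The estimated counts were rounded. edgeR 4.0.16 (limma 3.58.1, R 4.3.3) fitted all 8 libraries with TMM scaling, its filter on low counts by stage (292 unigenes removed), robust quasi-likelihood and stage as the sole term (4 residual degrees of freedom). P-values were adjusted over the 10822 tested unigenes. The SE is the log2 fold change divided by the square root of F. The script was also run on simulated counts in which each unigene had the same dispersion in all stages. That run cannot check the unequal spread between stages seen here. DESeq2 1.42.0 and the other alternatives are in the closing section. Total counts were between 17172891 and 27160267, so counting limits precision only at low counts.

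The genes and lists were chosen with earlier results of these data known. The text names the 3 genes, the 3 further proteases of the list, the 3 unigenes nearest in pattern to each gene, the neighbours in ID number, and *Doublesex2* as a check of the male label. The qPCR measurements were not analysed here. Primer sequences were read from the study's supplementary primer list.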

Additional observations from a re-analysis of the deposited data

How the results depend on the processing

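The counts of called trypsin-7-like genes were recomputed under 20 alternatives. In PF vs JF 1 gene, Cluster-5789.3677, was called in each. In SF vs PF the count was 1 instead of 0 with library size only, with a stricter filter (a mean of at least 1 CPM), with DESeq2 on all 8 libraries and without robust estimation, and between 0 and 1 with each library left out. In SF vs JF it was between 0 and 1 with each library left out. The called gene was Cluster-5789.3677 each time. The causes were not tested. All 3 genes had every male library above every female library in all 11 alternatives run for it, and all male log2 fold changes stayed positive. Nothing is read from either result, because the genes were chosen for that difference. The 9 pairs of a gene and a unigene near it in pattern were kept under both other scalings, and 5 pairs were kept with a pseudocount of 2 CPM, which weighs low values less.

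With the replicate number as a block, 1 gene was called in SF vs PF (Cluster-5789.3677, log2 fold change 1.80, edgeR adjusted p = 0.0494), and no other call of the 3 genes changed. The numbers were not taken to pair the libraries: the correlation of replicate differences between stages was from -0.04 to 0.14.

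Directions of genes without a call turned with single libraries. The log2 fold change of Cluster-5789.9553 ranged over the libraries left out from -2.05 (without SF replicate 1) to 1.70 (without PF replicate 1) in SF vs PF, from -1.03 (without PF replicate 1) to 1.00 (without PF replicate 2) in PF vs JF, and from -1.63 (without SF replicate 1) to 1.51 (without SF replicate 2) in SF vs JF. That of Cluster-5789.9554 ranged from -1.41 (without SF replicate 1) to 0.41 (without SF replicate 2) in SF vs PF, from -0.38 (without PF replicate 1) to 0.53 (without PF replicate 2) in PF vs JF, and from -1.19 (without SF replicate 1) to 0.62 (without SF replicate 2) in SF vs JF. The fit on the 6 female libraries gives no male comparison.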
